A study of Margaritifera margaritifera with 32 samples.

Results

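Ribosomal proteins are the protein subunits of the cytosolic ribosome, the particle that translates messenger RNA. The small subunit (names beginning RS or RPS) binds and decodes the message, and the large subunit (RL or RPL) joins amino acids and passes the growing chain through its exit tunnel. Because each ribosome carries most of these proteins in single copy, their transcripts are commonly found at levels that move together in animal cells.

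Kidney RNA of *Margaritifera margaritifera*, the freshwater pearl mussel, was sequenced in 32 animals, 1 library each. The animals came from above (upstream) and below (downstream) an unauthorised dump, in April 2009 and in March 2010, which gave 4 groups of 8 animals. The labels give an age class as well: upstream 2009 held 3 young, 4 middle-aged and 1 old animal, downstream 2009 held 1 middle-aged and 7 old, upstream 2010 held 4 young, 3 middle-aged and 1 old, and downstream 2010 held 3, 3 and 2. The groups are field samples without a treatment, so a difference between sites or years cannot be told apart from whatever else differed between those places or visits, and no marker of the mussel kidney is known surely enough to check the tissue label. Of 51392 assembled contigs, 43 carry a name that reads as a cytosolic ribosomal protein (RL, RPL, RS or RPS followed by a number), and these are described here. A contig is a stretch of transcript put together from reads, and its name is a best match, not a tested identity.

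The 43 contigs carry 33 names, 21 of them being large-subunit and 22 small-subunit contigs. For 7 names there is more than 1 contig. Library totals ranged from 55.7 to 190 M counted reads (M, 1000000 reads), with a median of 77.5 M. Levels are given as CPM, reads per 1000000 of the TMM-scaled library size, where TMM is a factor that evens out the bulk of contigs between libraries. Contig lengths are not in the files, so levels were compared between animals for 1 contig, and an order of contigs by CPM says how many reads they had, not how many transcripts. A count of 0 in a library allows a level of up to 0.0116 to 0.0825 CPM, the floor of 3 counts, which covers counting error only. The lane in the library names (4 lanes of 8 libraries) was spread over the groups.

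The summed level of the 43 contigs differed between animals by a factor of 15.1, from 7272 to 109900 CPM with a median of 15220. In upstream 2009 the lowest, median and highest sums were 8214, 24160 and 57190 CPM, and in downstream 2009 they were 15630, 20790 and 109900 CPM. In upstream 2010 they were 8485, 12990 and 17280 CPM, and in downstream 2010 7272, 11030 and 18350 CPM. The 2 highest animals were both old animals of downstream 2009, replicate 7 (109900 CPM) and replicate 8 (94450 CPM), and the next were upstream 2009 replicates 4, 3 and 2 (57190, 48040 and 44170 CPM). All 16 animals of 2010 lay within 7272 to 18350 CPM, and the ranges of all 4 groups overlapped.

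The high animals also had low TMM factors, which raises their CPM: the factor was 0.503 and 0.524 in downstream 2009 replicates 7 and 8 and 0.601 in upstream 2009 replicate 4, against a median of 1.07 over all animals. Without that factor, the contigs held between 0.938% and 5.53% of all counted reads, a range of 5.90-fold. Replicates 7 and 8 of downstream 2009 were still highest, with 5.53% and 4.95%. In bulk tissue a larger share of cells rich in these transcripts and more transcript per cell cannot be told apart.

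**Figure D1:**
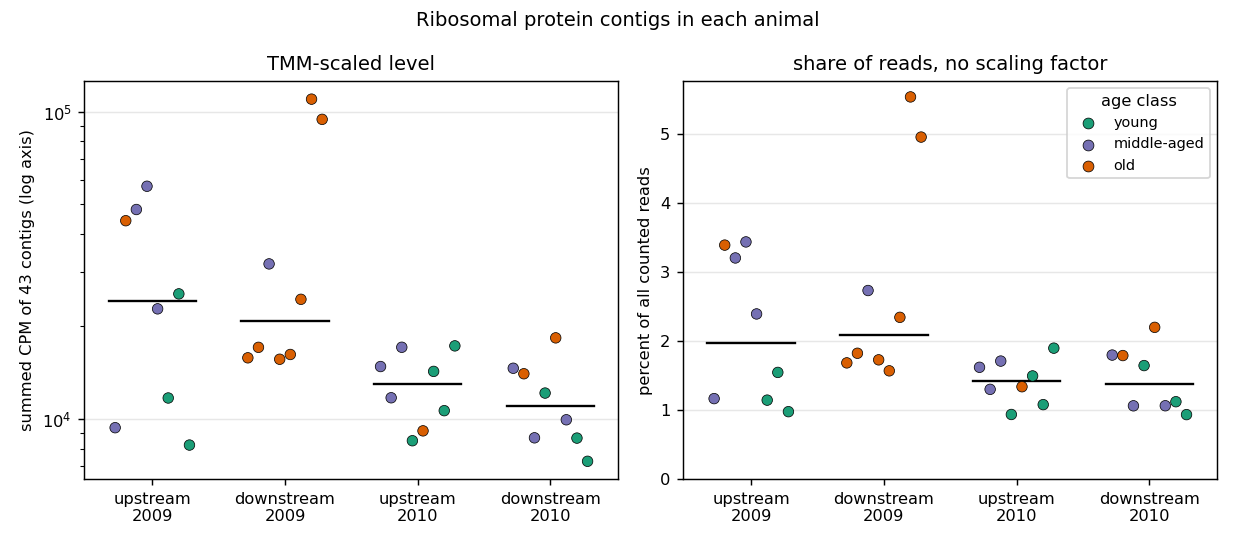
Summed level of the 43 ribosomal protein contigs in each of the 32 animals, by group, as TMM-scaled CPM on a log axis (left) and as percent of all counted reads (right); each point is 1 animal, coloured by age class, and the line is the group median. Downstream 2009 replicates 7 and 8 lie at 109900 and 94450 CPM, above all others, and the 2010 animals lie between 7272 and 18350 CPM.

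The large and small subunits kept a nearly fixed ratio. Reads of the 22 small-subunit contigs divided by those of the 21 large-subunit contigs gave 1.29 to 1.41 in every animal (mean 1.37 ± 0.0281, SD, n = 32), in the animals with 7272 and with 109900 CPM alike. Of the 43 contigs, 39 passed the filter on low counts and entered the tests. For these a shared level was taken per animal as the median of log2 CPM, each contig first centred on its own mean. A contig was said to follow the shared level when its Spearman rho with the median of the other 38 contigs over the 32 animals was at least 0.7.

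Of the 39, 30 followed, 11 large-subunit and 19 small-subunit contigs. Their rho ran from 0.772 to 0.997, with a median of 0.981. The SD of the shared level over animals was 1.02 on the log2 scale, and the followers departed from it by a median SD of only 0.132, under 0.2 in 22 of the 30. With downstream 2009 replicates 7 and 8 left out, rho of the same 30 was 0.723 to 0.996. With levels taken as deviations from the group means, it was 0.863 to 0.996, so the followers also moved together within groups. These are descriptions over 32 animals whose values share a library and its scaling, and no p is attached.

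The 6 contigs of highest mean CPM illustrate the pattern. RS2, at the messenger RNA entry of the small subunit, had a lowest, median and highest level of 939, 2382 and 5241 CPM in upstream 2009 and of 1503, 2125 and 10210 CPM in downstream 2009. In 2010 the same values were 932, 1419 and 1809 CPM upstream and 876, 1236 and 2107 CPM downstream. All 4 ranges overlapped, and the 2009 groups held the high animals.

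RS3, also at the messenger RNA entry, had 561, 1631 and 4139 CPM in upstream 2009 and 1093, 1369 and 7761 CPM in downstream 2009, against 544, 829 and 1108 CPM in upstream 2010 and 489, 715 and 1198 CPM in downstream 2010. It departed from the shared level by an SD of 0.0803, the smallest of the 39. RS6, the small-subunit protein that S6 kinase phosphorylates in mammals, reached 3763 CPM in upstream 2009 and 7615 CPM in downstream 2009 but at most 1275 and 1177 CPM in the 2010 groups. In both, the highest animals of the 2009 groups lay far above every 2010 animal.

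In the large subunit, RL8, a protein near the peptidyl transferase centre, ranged over all animals from 511 to 6446 CPM, RL15.1.2 from 389 to 6869 CPM and Rpl7.1.2 from 509 to 7258 CPM. Their rho with the shared level was 0.981, 0.988 and 0.983. The highest and lowest animals of these contigs were again the downstream 2009 and downstream 2010 animals named for the sum.

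**Figure D2:**
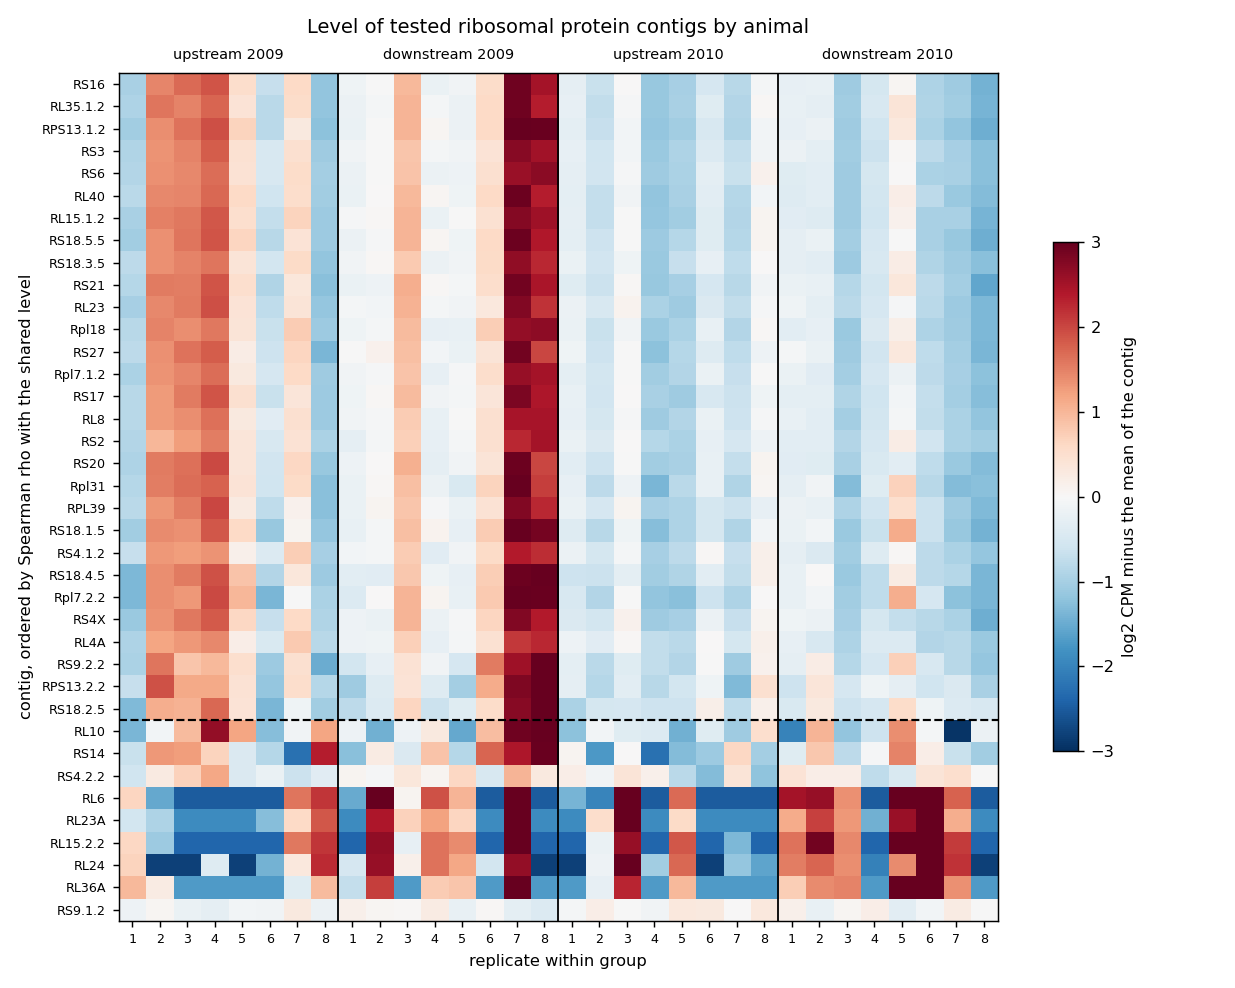
Level of 38 of the 39 tested contigs (rows, ordered by rho) in each animal (columns, grouped, replicate number below), as log2 CPM minus the mean of that contig, with colours capped at 3 either way. The 29 contigs above the dashed line follow 1 pattern, with upstream 2009 replicates 2 to 4 and downstream 2009 replicates 7 and 8 high, and the 9 below it do not.

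Of the 960 values of the 30 followers, 19 departed from the shared level by more than 0.6 log2 units. Of these, 16 fell among the 192 values of the 6 followers with a mean up to 50 CPM, 6 of them in RS18.2.5, and the largest was RS9.2.2 in downstream 2009 replicate 6 (1.03). Among the 24 followers with a mean over 50 CPM, 3 of 768 values departed as far, and these were RL4A and RS4X only. RL4A, a protein that lines the exit tunnel, stood at -0.65 from the shared level in downstream 2009 replicate 7 and at -0.63 in downstream 2010 replicate 5. RS4X, named for the X-linked copy of RS4 in humans, stood at -0.94 in the same downstream 2010 animal. That animal, an old one, also had Rpl7.2.2 0.86 and RS18.1.5 0.89 units above the shared level, and the largest spread of the followers about it (SD 0.400).

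The 9 tested contigs that did not follow were RS9.1.2, RS4.2.2, RS14 and 6 of the large subunit. RS9.1.2 stood apart by the evenness of its TMM-scaled level. RS9 is a small-subunit protein whose yeast counterpart affects the accuracy of decoding, and the contig was 3.86 to 6.49 CPM in all 32 animals, a range of 1.68-fold. Its lowest, median and highest levels were 4.27, 4.75 and 6.37 CPM in upstream 2009, 3.86, 5.32 and 6.11 in downstream 2009, 4.81, 5.56 and 6.49 in upstream 2010 and 4.11, 5.27 and 6.10 in downstream 2010. The groups overlapped throughout, and rho with the shared level was -0.25. Unscaled counts of RS9.1.2 were less even. It had 196 of 96.7 M counted reads in downstream 2009 replicate 8 and 665 of 69.8 M in upstream 2010 replicate 5. Without scaling factors its rho was -0.48.

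The other contig under that name behaved differently. RS9.2.2 ranged from 3.75 to 95.7 CPM over the animals, a 25.5-fold range, and followed the shared level with rho 0.911. The 2 RS9 contigs, with 15758 and 35801 reads, had a rho of -0.22 with each other. RS4 was alike: RS4.1.2, with 2669157 reads, followed at rho 0.967, while RS4.2.2, with 8992 reads, ran from 1.21 to 6.74 CPM at rho 0.239. The rho between the 2 RS4 contigs was 0.157.

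Of the 7 names with several contigs, 4 had a pair with rho under 0.7: besides RS9 and RS4, these were RL15 (-0.12) and RL35 (0.301), each with 1 abundant follower and 1 contig of 805 or 191 reads. The other 3 held together. The 5 contigs of RS18, in the head of the small subunit, ranged from 6851 to 1887973 reads and had rho of 0.747 to 0.979 between pairs. The 2 Rpl7 contigs had rho 0.916, and the 2 of RPS13 0.785. How a read that matches several contigs was counted is not given in the sources used here, so reads of near-identical contigs could be split between them.

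**Figure D3:**
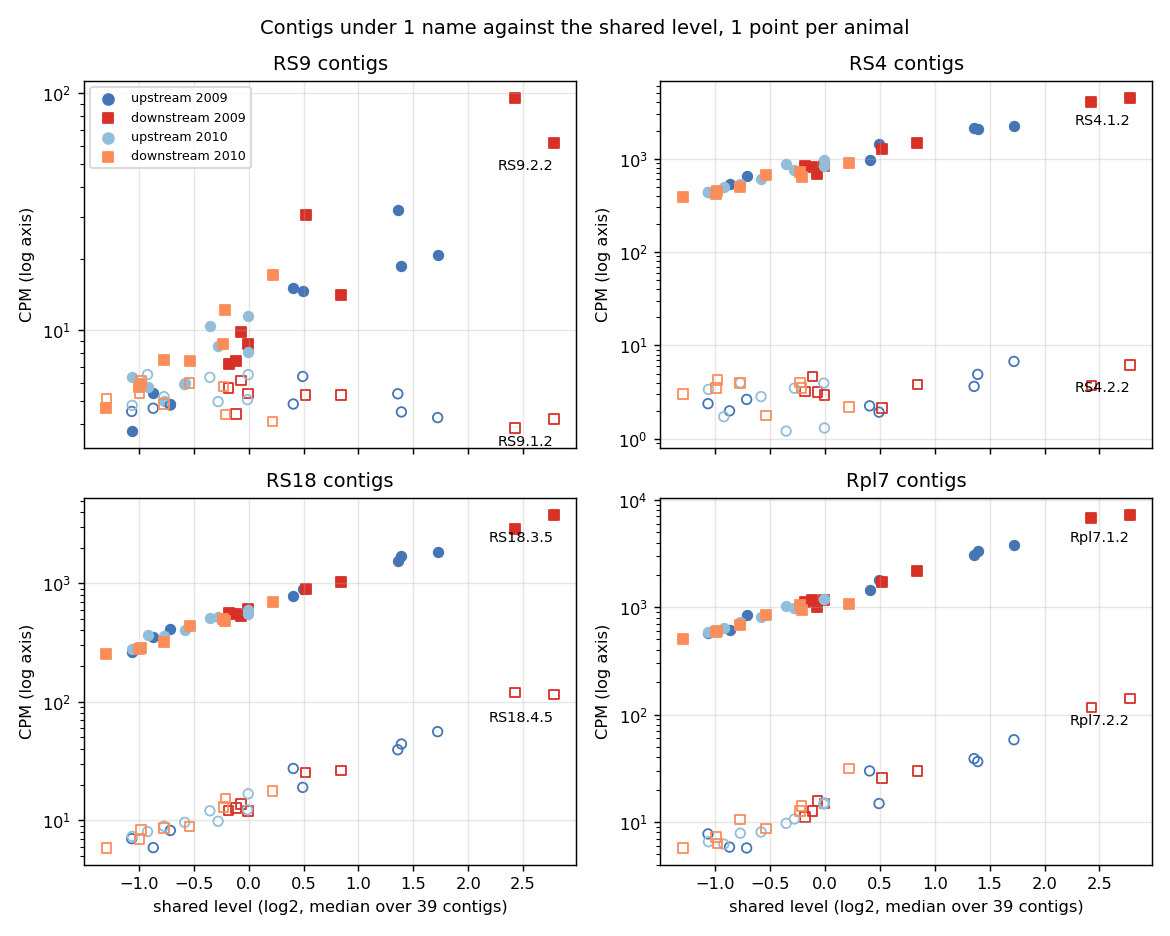
CPM (log axis) of pairs of contigs under 1 name against the shared level of the animal (log2, median over the 39 tested contigs); each point is 1 animal, with filled and open symbols for the 2 contigs and colour for the group. The RS9.2.2, RS4.1.2, RS18 and Rpl7 points rise with the shared level, while RS9.1.2 stays between 3.86 and 6.49 CPM and RS4.2.2 between 1.21 and 6.74 CPM.

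RS14, in the platform of the small subunit, and RL10, a protein that joins late in the assembly of the large subunit in yeast, were counted in few reads. RS14 had 335 reads in all 32 libraries and rho 0.464, and RL10 had 741 reads and rho 0.562. Outside downstream 2009 replicates 7 and 8, RL10 was at 1.00 CPM at most, and replicate 8 alone gave 287 of the 741 reads (5.66 CPM). Like most followers, RL10 was thus highest in that pair of animals.

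The 5 large-subunit contigs RL6, RL15.2.2, RL23A, RL24 and RL36A, were found in some animals and not in others. They were grouped after their counts had been seen. RL23A and RL24 name proteins at the tunnel exit and at a bridge between the subunits, and RL36A one near the exit site for transfer RNA. Together they had 3550 reads, with at least 1 read in 27 animals, at least 10 in 19 and none in 5. At least 10 reads were counted in 4 animals of upstream 2009, 6 of downstream 2009, 3 of upstream 2010 and 6 of downstream 2010.

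Their reads rose and fell together, with rho of 0.852 to 0.941 between pairs over the 32 animals, and their sum had a rho of -0.06 with the shared level. Downstream 2010 replicate 6 held 806 of the reads (10.9 CPM), at a shared level of -0.77. Downstream 2009 replicate 8, at a shared level of 2.43, held 0. RL6 itself had a lowest, median and highest level of 0, 0.0104 and 0.519 CPM in upstream 2009, 0, 0.167 and 2.09 in downstream 2009, 0, 0.00472 and 1.41 in upstream 2010, and 0, 0.531 and 3.83 in downstream 2010. Every group held animals at 0 and all 4 ranges overlapped.

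The 4 contigs that failed the filter, RL35.2.2, RL36, RL38 and RL44, made up another set of this kind, also put together after their counts had been seen. Of their 980 reads, 826 (84.3%) came from upstream 2009 replicates 2, 4, 5 and 7, with 180, 238, 268 and 140 reads. Outside these, at most 40 reads were counted in an animal, in downstream 2009 replicate 4, and the 16 animals of 2010 held 37 reads in all. The rho between pairs was 0.535 to 0.820. RL44 and RL36A are names used in different species for the same protein family, yet RL44 was highest in upstream 2009 replicate 4, where RL36A had no read.

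Both sets were set beside contigs named only by a locus tag of another organism. Among the 50 other contigs with the highest rho with the 5-contig set (0.850 to 0.942), 17 carried a tag of a ciliate genome, against 31 such tags in the whole table (0.0603%). The summed level of all 31 ciliate-tagged contigs had a rho of -0.12 with the set over the 32 animals. Among the 50 nearest to the 4-contig set (0.634 to 0.795), 11 carried a diatom tag, against 17 in the table (0.0331%). The summed level of the diatom-tagged contigs was highest in the same 4 animals, at 82.5, 52.3, 32.8 and 31.6 CPM in upstream 2009 replicates 4, 5, 7 and 2. Over the 32 animals that sum had a rho of 0.46 with the 4-contig set. The origin of the reads of either set was not tested. Nonzero counts of these contigs were even numbers in 72.5% of cases for the first set and 83.7% for the second, against 52.3% of counts from 1 to 100 in the table.

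**Figure D4:**
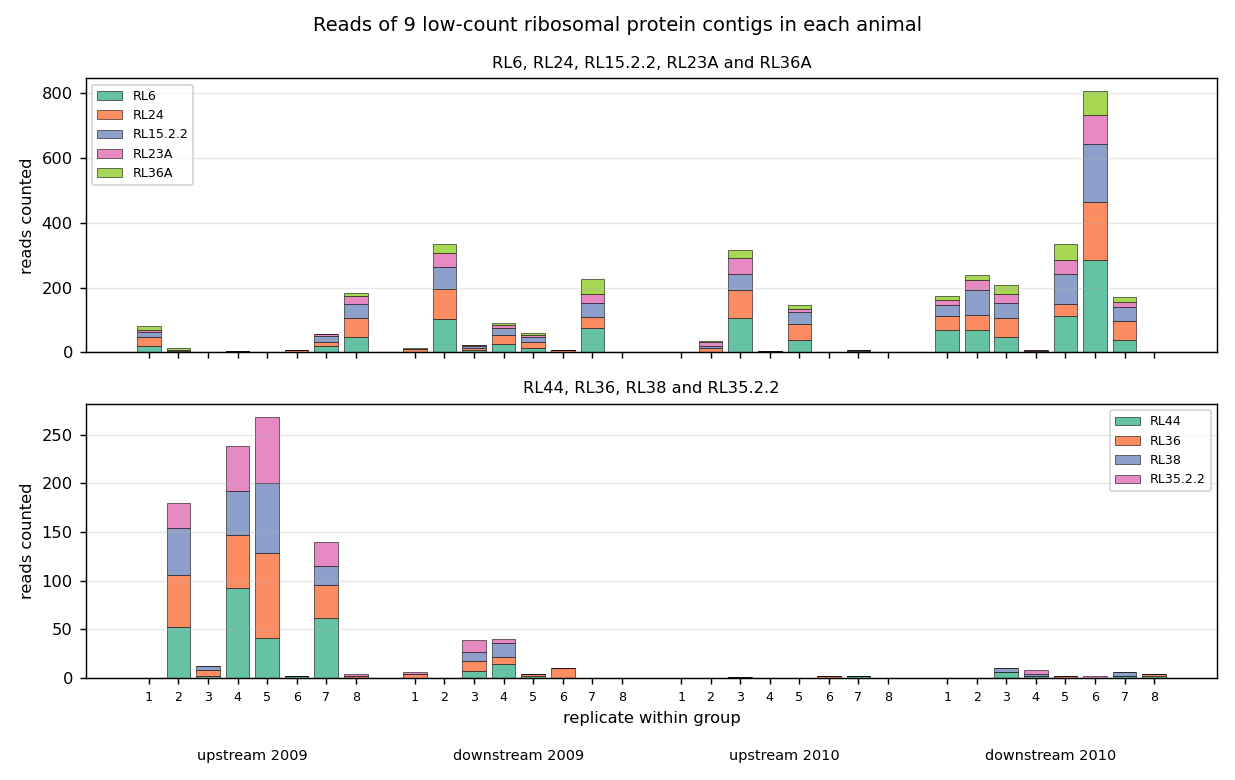
Reads counted in each animal for the 5 contigs RL6, RL24, RL15.2.2, RL23A and RL36A (top) and the 4 contigs RL44, RL36, RL38 and RL35.2.2 (bottom), stacked by contig, with animals by group and replicate. The top set is highest in downstream 2010 replicate 6 (806 reads), and 826 of the 980 reads of the bottom set come from upstream 2009 replicates 2, 4, 5 and 7.

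Site was compared first, downstream against upstream within a year, by edgeR's quasi-likelihood test on all 51264 contigs with Benjamini-Hochberg adjustment, a contig being called at an adjusted p under 0.05. In 2009, 0 of the 39 tested contigs were called, as were 0% of all contigs. All 39 log2 differences were above 0 with a median of 0.55. Before adjustment 1 of the 39 had a p under 0.05 (edgeR), where 4277 of all 51264 contigs had. DESeq2 and limma-voom called 0 of the 39 as well, where they called 0.0956% and 0% of all contigs. The direction rested on downstream 2009 replicates 7 and 8: without them, the median of the 30 followers was -0.49 where it had been 0.54. Within the 4 lanes the downstream minus upstream difference of the shared level was 0.36, 2.89, -0.34 and -1.17 log2 units, and lane 2 holds both of these animals.

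In 2010, 0 of the 39 were called between the sites, against 0.164% of all contigs. Before adjustment 0 of the 39 had a p under 0.05 (edgeR), where 7268 of all 51264 contigs had. The median log2 difference was -0.03, with 16 contigs above 0 and 23 below, and DESeq2 and limma-voom called 0 of them, where they called 1.47% and 29.0% of all contigs. Within lanes the shared level differed by 0.36, -0.75, 0.21 and -0.23. The summed levels of the 2 sites covered nearly the same range in that year.

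Between years, most of the ribosomal protein contigs were lower in 2010 downstream. Of the 39 tested, 31 were called lower and 0 higher, where 27.7% of all contigs were called and 13.7% were called lower. The 31 were all 30 followers and RL10. The followers' log2 differences ran from -1.59 to -2.10, with a median of -1.83 against a median of -0.02 over all contigs. Without scaling factors the followers' median was -0.97 with 23 called, while the median over all contigs was 0.47 and 28.2% of them were called. Under limma-voom the followers' median was -1.16 with 28 called, where 47.7% of all contigs were called. The 11 large-subunit followers (RL4A, RL8, RL15.1.2, RL23, RL35.1.2, RL40, RPL39, Rpl18, Rpl31 and both Rpl7 contigs) lay between -1.61 for RL4A and -1.94 for RL15.1.2. The 19 small-subunit followers (among them RS2, RS3, RS4.1.2, RS4X, RS6, RS9.2.2, both RPS13 contigs, RS16, RS17, the 5 of RS18, RS20, RS21 and RS27) lay between -1.59 for RS2 and -2.10 for RPS13.1.2. Standard errors of the 30 were 0.385 to 0.548, and differences between followers were not tested.

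The 3 smallest adjusted p belonged to RS4X, RL40 and RS6. RS4X had a lowest, median and highest level of 42.9, 62.4 and 337 CPM in downstream 2009 and of 17.7, 28.6 and 44.5 CPM in downstream 2010, and fell by 1.94 on the log2 scale (SE 0.452, adjusted p = 0.00201, edgeR). RL40, which is made as a fusion with ubiquitin, went from 474, 692 and 4167 CPM to 222, 343 and 620 CPM (log2 -1.92, SE 0.453, adjusted p = 0.00225, edgeR). RS6 went from 1030, 1394 and 7615 CPM to 492, 707 and 1177 CPM (log2 -1.90, SE 0.451, adjusted p = 0.00236, edgeR). In each the ranges overlapped at their edges, since 1 or more animals of 2010 lay above the lowest of 2009. RS20 was the 1 follower whose groups did not overlap, with 521 to 4814 CPM in 2009 and 255 to 507 CPM in 2010. The share of all contigs without overlap is not given here, so this count only describes the followers.

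These calls rested on downstream 2009 replicates 7 and 8 as a pair. With both left out, 0 of the 30 followers were called, where 20.8% of all contigs were. All 30 remained below 0 with a median of -0.81. RS4X then had -0.97 (SE 0.371, adjusted p = 0.0621, edgeR), and the smallest adjusted p of the followers was this one. With either animal alone left out, 28 followers were still called. The share of all contigs called in those fits is not given here. Within lanes the 2010 minus 2009 difference of the shared level was -0.48, -3.74, -0.13 and -1.15 log2 units in lanes 1 to 4. With age class as an added term 16 were called, where 16.2% of all contigs were. Of the 8 downstream 2009 animals 7 were old, and age and group were only partly separable.

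The 8 tested contigs not called downstream were RS14, RS4.2.2, RS9.1.2 and the 5 contigs present in some animals. RS9.1.2 had a log2 difference of 0.05 (SE 0.121, adjusted p = 0.795, edgeR), the smallest standard error of the 39, and RS4.2.2 had -0.18 (SE 0.284, adjusted p = 0.670, edgeR). The 5 had differences of 0.30 to 1.05 with standard errors of 1.04 to 1.26. RL10 was called at -2.75 (SE 0.882, adjusted p = 0.0198, edgeR), but not without replicate 8 of downstream 2009 (adjusted p = 0.355, edgeR).

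Upstream, the same contigs were lower in 2010 in direction, and 0 of the 39 were called, against 3.73% of all contigs (2.94% lower). The followers' median was -1.20 and all 30 were below 0. Before adjustment 27 of the 30 had a p under 0.05 (edgeR), where 9953 of all 51264 contigs had. The smallest adjusted p was 0.103 (RL40, log2 -1.26, SE 0.444, edgeR), with 263, 805 and 1798 CPM in 2009 and 241, 383 and 514 CPM in 2010. The lowest animals of the 2 years were close and the highest of 2009 lay far above the 2010 range. With downstream 2009 replicates 7 and 8 left out of the fit, 24 followers were called upstream with a median of -1.21, where 8.61% of all contigs were called, RL40 at an adjusted p of 0.0194 (edgeR). With only the 2 upstream groups in the fit, 0 were called, where 2.33% of all contigs were. The smallest adjusted p of a follower was then 0.0883 (edgeR). Without scaling factors the followers' median was -0.66 (0.31 over all contigs), and under limma-voom it was -0.69. DESeq2 called 4 and limma-voom 0, where they called 7.05% and 5.19% of all contigs. In lanes 1 to 4 the 2010 minus 2009 difference of the shared level upstream was -0.48, -0.10, -0.68 and -2.09 log2 units.

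**Figure D5:**
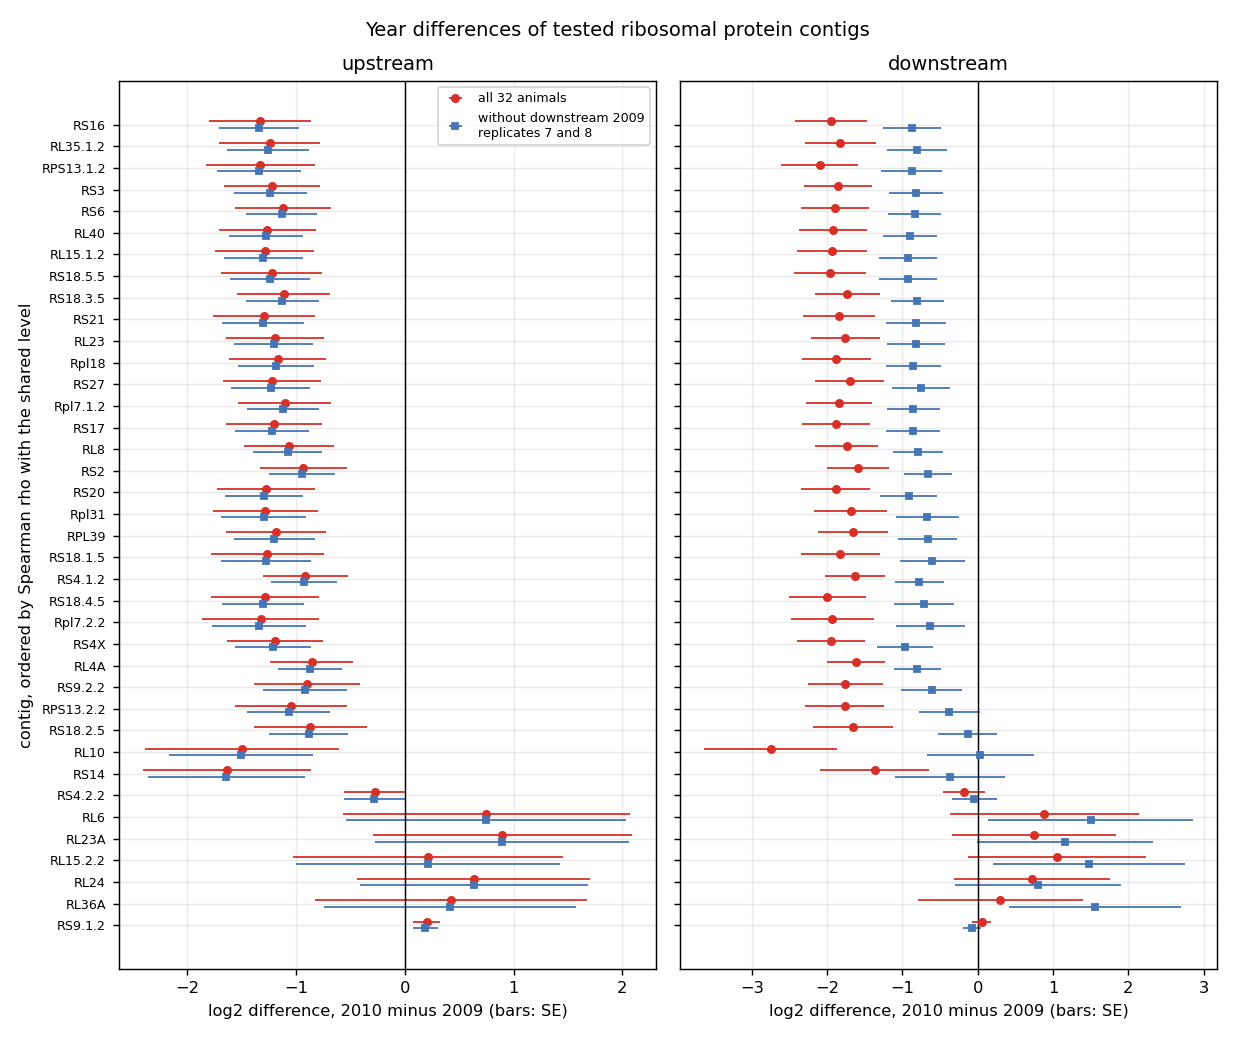
Log2 difference between 2010 and 2009 of 38 of the 39 tested contigs at the upstream and the downstream site (points, with bars of 1 SE), from the fit to all 32 animals (red) and without downstream 2009 replicates 7 and 8 (blue); contigs are ordered by rho with the shared level. Downstream the followers move from a median of -1.83 to one of -0.81, and upstream they stay near -1.20.

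The difference between the 2 year effects, the site by year interaction, was called for 0 of the 39, against 0.441% of all contigs. Before adjustment 0 of the 39 had a p under 0.05 (edgeR), where 5557 of all 51264 contigs had. DESeq2 and limma-voom called 0 of the 39 too, where they called 1.83% and 7.93% of all contigs. The median of the interaction was -0.63 with all animals and 0.38 without the 2 high animals. So the year effects of the ribosomal contigs were not shown to differ between the sites. The 2 year effects share no animals.

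Old animals were compared with young ones with both group and age as terms. Of the 39, 0 were called, against 2.45% of all contigs, with a median log2 difference of 0.85. Before adjustment 4 of the 39 had a p under 0.05 (edgeR), where 12061 of all 51264 contigs had. The number of the 39 called was 0 by DESeq2 and 5 by limma-voom. Of these 5, 4 (RL6, RL15.2.2, RL23A and RL36A) were contigs present in some animals only. DESeq2 called 8.01% and limma-voom 16.6% of all contigs. With lane as a further term 24 were called, all higher in old animals, at a median of 1.79, where 8.46% of all contigs were called. Without the group term 31 were called, where 26.4% of all contigs were. In lane 2 the only old animals are downstream 2009 replicates 7 and 8, and their part in the calls with lane was not tested. In upstream 2009 the summed level was 8214, 11690 and 25520 CPM in the young animals, 9356, 22810, 48040 and 57190 CPM in the middle-aged and 44170 CPM in the old one, while the old animal of upstream 2010 had 9137 CPM. In downstream 2010 the old animals had 14020 and 18350 CPM, the middle-aged 8672, 9929 and 14610 CPM and the young 7272, 8654 and 12130 CPM. The old animals thus lay above every young one in upstream 2009 and downstream 2010, and within the range of the young in upstream 2010. Downstream 2009 held no young animal.

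Other parts of the translation machinery were read in the same way, from lists matched by name. Of 10 translation factor contigs, 6 fell from 2009 to 2010 downstream and 0 rose, with a median of -0.73. EF1A.2.2, the factor that brings aminoacyl transfer RNA to the ribosome, fell by 1.52 on the log2 scale (SE 0.370, adjusted p = 0.00289, edgeR) and followed the ribosomal shared level with rho 0.917. PABP1, which binds poly(A) tails, fell by 1.06 (adjusted p = 0.00397, edgeR), while EIF4G1, a scaffold of translation initiation, was at -0.04 (adjusted p = 0.907, edgeR).

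Of 13 contigs of mitochondrial ribosomal proteins, which serve translation inside mitochondria, 9 were called lower downstream (median -1.09) and 4 upstream. Downstream, 13.7% of all contigs were called lower. The ribosomes inside and outside mitochondria were therefore both represented among the calls downstream. Upstream 4 of 13 mitochondrial and 0 of 39 cytosolic contigs were called, where 2.94% of all contigs were called lower. The upstream calls were RT02, MRPS14.1.3, MRPS14.2.3 and MRPS14.3.3, so most were contigs under the name MRPS14. These MRPS14 contigs were all among the downstream calls as well. The upstream difference between the lists was not tested. Of 7 contigs named for RNA polymerases I and III, which transcribe ribosomal and transfer RNA, 5 were called lower downstream (median -1.45) and 1 upstream. POLR1C fell by 1.73 downstream (adjusted p = 0.00155, edgeR). The name RPA1, carried by 2 of the 5, is also used for a replication protein.

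Ribosome assembly had 3 contigs, of which NOCT alone was called downstream. That name is better known for a circadian phosphatase than for assembly, and it was matched by its first letters only. Of 11 contigs with a ubiquitin name, 4 were called lower downstream, where 27.7% of all contigs were called and 13.7% called lower. In the site, interaction and age comparisons 0 contigs of any of these lists were called.

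Among named contigs other than the ribosomal ones, 10 had the highest rho with the shared level over the 32 animals, from 0.940 to 0.969. They were EF1B, RBX1, EI3EA, TCTP.2.2, OST4.1.2, APOP1.1.2, TM14C, nmral1, CASP2.6.6 and TBA1.2.2. EF1B, an exchange factor of translation elongation that the list of translation factors also holds, headed them at 0.969, with levels of 175 to 2552 CPM, and EI3EA, a subunit of an initiation factor, had 0.960. In all, 410 of the 51225 other tested contigs had a rho of at least 0.9, beside 28 of the 39 ribosomal protein contigs, and 43 had at least 0.98, beside 16 of the 39. All 43 were contigs with a LOC number and no gene name.

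Markers of other tissues were summed per animal beside these levels. The 14 muscle contigs, tropomyosins and myosin light chains, gave medians of 1002, 1296, 738 and 722 CPM in upstream 2009, downstream 2009, upstream 2010 and downstream 2010. Their highest sum, 4979 CPM, was in downstream 2009 replicate 8, whose ribosomal sum was 94450 CPM. The next, 4125 CPM, was in upstream 2010 replicate 6, whose ribosomal sum was 14270 CPM. The 2 contigs of cilia had medians of 14.5, 13.8, 15.3 and 18.2 CPM, no contig was matched for gonad or digestive gland, and none of the matched markers was at 0 throughout. The 18 contigs tagged as diatoms or algae had medians of 30.3, 18.6, 10.9 and 12.1 CPM, higher in 2009 like the ribosomal contigs. The part of any of these tissues or organisms in the ribosomal levels or the year differences was not tested.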

How the data were processed

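For 32 libraries, 1 deposited table gives unscaled counts per contig as whole numbers (SV Total RNA kit and TruSeq RNA v2, per the labels). BWA 0.7.12 and SAMtools 1.1 are listed per the submitters' processing notes; the assembler, naming of contigs and rule for reads with several matches are not given in the sources used here. Groups came from the source label of each animal; age class and lane from the labels. Replicate numbers were given in accession order. Animals are replicates.

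Counts were fitted in R 4.3.3 with edgeR 4.0.16: filterByExpr (minimum count 10, minimum total 15), TMM factors, robust quasi-likelihood, 1 mean per group over all 32 libraries, and Benjamini-Hochberg adjustment over 51264 contigs. Age was fitted with group. DESeq2 1.42.0, limma 3.58.1 (voom with sample weights), other scalings, filters, covariates and omitted libraries were alternatives. Log2 CPM used a prior count of 2. SE came from the F statistic. Steps were tested on simulated data.

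Named with values were the 6 contigs of highest mean CPM, the 3 of smallest p, those not called or not following, and the 10 most alike named contigs. Contigs, lists and alternatives were chosen with earlier results of these data known. Of the contigs counted, 1 is not reported by name here.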

Additional observations from a re-analysis of the deposited data

Results flagged for a closer look

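Of 68 sets of 8 animals examined (1 contig in 1 group), 15 were flagged by Dixon's criterion. In these, the distance of an animal from its nearest neighbour was a large part of the whole range. The criterion flags about 1 in 20 by chance only where values are normally distributed. It was applied to CPM, and several contigs had no reads in many animals: RL23A had reads in 3 of 8 animals of upstream 2010. The 15 flags therefore cannot be compared with that rate. The sets are not independent, since contigs that rise together point to the same animal.

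Upstream 2010 replicate 3 was far above its group for RL6 (1.41 CPM), RL24 (1.19 CPM), RL23A (0.656 CPM) and RL36A (0.321 CPM). Downstream 2010 replicate 6 was so for RL6 (3.83 CPM), RL24 (2.43 CPM), RL15.2.2 (2.43 CPM) and RL23A (1.22 CPM). Upstream 2009 replicate 8 stood out for RL24 (0.688 CPM), RL23A (0.271 CPM) and RS14 (0.496 CPM), and downstream 2009 replicate 7 for RL36A (1.29 CPM). RL10 stood out in downstream 2009 replicate 8 (5.66 CPM) and in upstream 2009 replicate 4 (1.00 CPM). The 1 contig among them that follows the shared level was RS2, highest in downstream 2010 replicate 5 at 2107 CPM, the animal with the widest spread of followers about the shared level.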

How the results depend on the processing

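Leaving out downstream 2009 replicates 7 and 8 together changed most. The number called lower between years went from 31 to 1 downstream (RL36, kept by the filter in that subset) and from 0 to 26 upstream. Of all contigs, 20.8% downstream and 8.61% upstream were then called in either direction. The median log2 difference over the contigs tested became -0.78 for the year downstream, -0.47 for site in 2009 and 0.38 for the interaction. The year effect upstream also gave 4 calls with DESeq2 and 4 with no filter (RL35.2.2, RL36, RL38 and RL44), where 7.05% and 3.91% of all contigs were called. With age class as a term, 16 were called downstream, where 16.2% of all contigs were. Old against young gave 31 calls without the group term, 24 with lane as a term (median 1.79) and 5 with limma-voom. Leaving out each library in turn gave 28 to 31 calls for the year downstream and 0 to 3 upstream, and 0 for the others. The 3 upstream came without upstream 2009 replicate 8, where 3624 contigs were called in all. Shares of all contigs called are not given here for these fits. Medians then ran from -1.91 to -1.37 for the year downstream, -1.32 to -0.94 upstream, 0.17 to 0.75 for site in 2009, -0.21 to 0.06 for site in 2010, -0.85 to -0.20 for the interaction and 0.72 to 1.08 for age. For the year downstream, the sign changed for RL10 without both replicates (0.0347), RL24 and RL6 under limma-voom (-0.86 and -0.33), RS4.2.2 with no scaling factor and under limma-voom (0.38 and 0.11), and RS9.1.2 with the age term, under limma-voom and without both replicates (-0.0095, -0.0023 and -0.073). The cause of these changes was not tested. The set of 9 contigs not following kept its size within 1.5-fold under all 4 alternatives. No paired analysis was possible because the labels number the animals through the series and give groups no shared replicate numbers. Depth limits the 11 contigs that had 191 to 1082 reads over all libraries.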
